A study of Mus musculus with 4 samples.

Results

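NF-kappaB is a family of DNA-binding dimers, and the genes described here are its subunits (Nfkb1, Nfkb2, Rel, Rela and Relb), the inhibitors of the IkB family (Nfkbia, Nfkbie, Nfkbiz and Bcl3) and the ubiquitin-editing inhibitor Tnfaip3, better known as A20. The list was set by gene name, and it was chosen with earlier results of these data known. Each gene was read from the probe set that the array's annotation pairs with that symbol alone. Of the 10 listed genes, 9 had such a probe set, 1 each, among 19938 genes tested, and Nfkb1 was not analysed here. The 4 arrays came from C57BL/6 mouse spleen, 2 from CD4+ cells of wild type mice and 2 from CD4+ lymphoma cells of mice that were homozygous for a Tet2 gene trap. Such a trap is a cassette that interrupts a transcript, and Tet2 encodes an enzyme that oxidises methylated cytosine. The labels name no treatment beyond cell separation and no age, and both groups were collected from spleen with a biotinylated CD4 antibody on magnetic columns. Genotype and malignancy differ together, so they cannot be told apart. The labels do not say whether the numbered samples were separate animals, and the p-values measure only the spread between these samples. Within each group the arrays differed widely in Xist and Y-linked signal, with values given below.

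In resting T cells the dimers are held in the cytoplasm by IkB proteins. Signals from the antigen receptor, from costimulatory receptors or from cytokines activate a kinase complex that marks IkB for destruction and frees the dimers to enter the nucleus. Several inhibitors, Nfkbia and Tnfaip3 among them, are themselves textbook targets of NF-kappaB and close a negative feedback loop. Nfkb2 and Relb form the dimer of the slower alternative route, which runs through the kinase encoded by Map3k14.

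Sequence upstream of the members was read from RefSeq (GRCm38.p6), because many kappaB sites of this feedback loop lie close to the start. The window was the 250 bases before each annotated start. A degenerate kappaB decamer was searched in it, made of 2 G, 2 purines, 2 bases of any kind, 2 pyrimidines and 2 C, a pattern that reads the same on both strands. It was found before at least 1 start of 5 of the 7 members in the table, namely Nfkb2, Rel, Nfkbia, Nfkbie and Tnfaip3, and of 10.8% of all 27025 genes (9.55% of 32851 windows). Rela and Bcl3 had no match, which says only that these letters were not in the windows. Windows are given for Nfkbia and Tnfaip3, the members with the largest differences, for Nfkb2, the subunit with the largest difference, and for Rel, a subunit with a match and a small difference. Matches are in capitals, and overlapping matches run together in Nfkb2 and Rel.
Nfkbia, chr12:55492648-55492897, minus strand: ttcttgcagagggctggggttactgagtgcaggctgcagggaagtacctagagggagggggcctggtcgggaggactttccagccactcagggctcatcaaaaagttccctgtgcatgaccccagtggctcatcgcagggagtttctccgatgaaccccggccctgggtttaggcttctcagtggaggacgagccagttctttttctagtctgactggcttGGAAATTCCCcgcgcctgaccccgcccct
Tnfaip3, chr10:19015411-19015660, minus strand: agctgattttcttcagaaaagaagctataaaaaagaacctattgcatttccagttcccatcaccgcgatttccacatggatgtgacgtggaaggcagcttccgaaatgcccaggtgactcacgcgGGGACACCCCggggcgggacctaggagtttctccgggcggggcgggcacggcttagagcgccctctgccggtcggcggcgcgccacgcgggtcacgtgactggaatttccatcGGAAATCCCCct
Nfkb2, chr19:46304487-46304736, plus strand: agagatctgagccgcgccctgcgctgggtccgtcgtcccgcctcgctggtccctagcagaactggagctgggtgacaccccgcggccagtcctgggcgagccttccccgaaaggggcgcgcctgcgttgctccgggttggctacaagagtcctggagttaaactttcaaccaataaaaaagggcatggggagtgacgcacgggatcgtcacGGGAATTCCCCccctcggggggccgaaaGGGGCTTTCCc
Rel, chr11:23770970-23771219, minus strand: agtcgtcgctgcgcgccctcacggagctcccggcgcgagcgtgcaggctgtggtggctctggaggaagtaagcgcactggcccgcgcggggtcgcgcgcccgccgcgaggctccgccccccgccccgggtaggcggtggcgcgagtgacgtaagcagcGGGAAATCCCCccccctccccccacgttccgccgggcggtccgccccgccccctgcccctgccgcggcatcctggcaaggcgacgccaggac
The Nfkbia match, GGAAATTCCC, began 29 bases before the start. In Tnfaip3, where this window was 1 of 2 annotated and the other had no match, the nearer match, GGAAATCCCC, began 12 bases before the start, and the same 10 letters were present 91 bases before the start of Rel. The Nfkb2 window is 1 of 3 annotated for that gene and lies inside the annotated span of the gene. It had 3 matches, of which GGGAATTCCC began 39 and GGGGCTTTCC 11 bases before the start. In Nfkbie the match GGGGGATTCC began 106 bases before the start. Matches were therefore present both in members with large and in members with small differences between the groups, and no binding was measured here.

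Facts of the arrays that touch these values are few. The median intensity of the arrays lay between 130 and 142. Tet2 was at 980 and 1016 in wild type and at 596 and 399 in lymphoma (log2 difference -1.03, SE 0.24, limma adjusted p = 0.077), with the position of the trap relative to its probes unknown. The labels give no sex. Xist was at 5421 and 42.0 on wild type arrays 1 and 2 and at 1856 and 4688 on lymphoma arrays 1 and 2, and the Y-linked gene Eif2s3y was at 12.8, 368, 843 and 13.9 in the same order, so lymphoma array 1 carried both signals. B cell markers were lower on the lymphoma arrays, with 8 of 9 lower at an adjusted p under 0.05 in limma, which counts as a call here, and summed intensities of 20279 and 13682 against 3049 and 2708. Among macrophage and monocyte markers 8 of 10 were called lower (summed 11670 and 11576 against 3156 and 4537), and among dendritic cell markers 6 of 7 (5008 and 4184 against 731 and 756). No marker was at 0. T cell markers had summed intensities of 25335 and 25282 against 29406 and 30126, and none of 7 was called. They did not all move together, with 5 positive and 2 negative log2 differences. The mean of Cd3d, Cd3e and Cd3g was 0.48, with Cd4 at 0.41 and Cd2 at 0.32. The 2 negative ones were Cd28 at -0.04 and Cd5 at -0.92 (3929 and 3479 against 2443 and 1557). A scaling by the Cd3 genes is therefore 1 choice among T cell markers that differ. In bulk samples such as these, fewer cells of a type and less RNA per cell cannot be told apart. The part of this cell mix in the members' differences was not tested.

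The inhibitor Nfkbia rose in lymphoma, and it was the only member that passed the test. The other 8 measured members also had positive log2 differences, between 0.10 and 1.03, without passing. Both lymphoma arrays lay above both wild type arrays in 7 of the 9 members, against 20.6% of all genes tested, and in none did both lie below, against 23.5% of all genes. The test was limma, a linear model that shares variance information across genes, with Benjamini-Hochberg adjustment over all 19938 genes. By the rule for a call 1.82% of all genes were called higher and 2.46% lower, beside 1 of 9 members called higher and 0 called lower. At an unadjusted p under 0.05 in limma, counted in either direction, 5 of the 9 members and 3119 of all 19938 genes differed. All 5 of these members were higher. The median log2 difference of the 9 members was 0.54, and that of all genes was -0.04. Subtracting the mean of Cd3d, Cd3e and Cd3g from each array, which lowers every difference by the same amount, brought these medians to 0.065 and -0.52 and left no member called in limma (1 had an unadjusted p under 0.05).

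**Figure D1:**
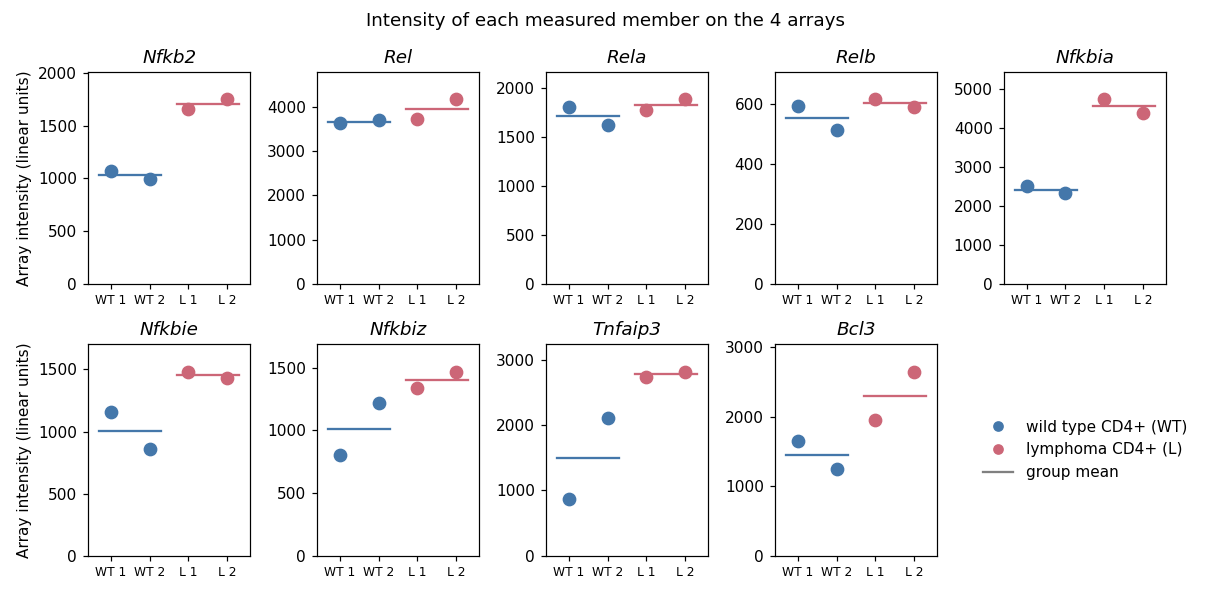
Array intensity (linear units, axis from 0) of the 9 measured members on the wild type (WT) and lymphoma (L) arrays, 1 point per array, with lines at the group means. Nfkbia and Nfkb2 show tight pairs that stand apart, Tnfaip3 is spread between 875 and 2103 on the wild type arrays, and the groups of Rela and Relb overlap.

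Nfkbia encodes IkB alpha, which binds dimers that contain Rela or Rel and carries them back out of the nucleus. Its intensity was 2506 and 2329 in wild type and 4742 and 4383 in lymphoma, or 2417 ± 125 against 4563 ± 254 (SD, n = 2 in each group). The groups were well apart, and the arrays within each group differed by 0.11 on the log2 scale in both. The log2 difference was 0.92 (SE 0.15, 95% interval 0.55 to 1.28), a 1.89-fold higher intensity, with an adjusted p of 0.028 in limma, and 96.4% of all genes had a lower difference. The call was lost without wild type array 1 (0.97, adjusted p = 0.20 in limma) and likewise without array 2 (0.86, adjusted p = 0.22), and no gene on the array passed in either of these fits. It was also lost when the mean of Cd3d, Cd3e and Cd3g was subtracted from each array (0.44, adjusted p = 0.11), a scaling under which the median of all genes was -0.52.

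Nfkbie encodes IkB epsilon, a second cytoplasmic inhibitor. Its intensity was 1154 and 862 in wild type and 1481 and 1428 in lymphoma, so the groups did not overlap. The difference of 0.54 on the log2 scale (SE 0.20, 95% interval 0.051 to 1.04) did not pass in limma (adjusted p = 0.26). Dropping wild type array 1 gave 0.75 and dropping array 2 gave 0.33, so its size depended on which wild type array was used. Subtracting the Cd3 mean gave 0.065 (adjusted p = 0.81 in limma).

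Tnfaip3 encodes A20, which removes or rebuilds ubiquitin chains on signalling adaptors upstream of the IkB kinase. It had the largest difference among the members and the widest spread. Its intensity was 875 and 2103 in wild type and 2734 and 2814 in lymphoma. Both lymphoma values lay above both wild type values and were close together, while the wild type arrays were 1.27 apart on the log2 scale, a gap larger than that of 99.7% of all genes. The log2 difference was 1.03 (SE 0.39, 95% interval 0.084 to 1.98, adjusted p = 0.27 in limma). Dropping wild type array 1 gave 0.40 and dropping array 2 gave 1.67. From wild type array 1 to lymphoma array 2, both low in Y-linked signal, Tnfaip3 was higher by 1.69 on the log2 scale, and from wild type array 2 to lymphoma array 1, both high in it, by 0.38. With the Cd3 mean subtracted its difference was 0.55 (adjusted p = 0.18 in limma).

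The nuclear IkB proteins bind NF-kappaB on DNA and modulate its targets. Nfkbiz, which encodes IkB zeta, had intensities of 805 and 1216 in wild type and of 1334 and 1466 in lymphoma. As with Tnfaip3, wild type array 1 was the lowest of the 4. Its log2 difference was 0.50 (SE 0.24, 95% interval -0.080 to 1.08, adjusted p = 0.41 in limma), or 0.20 with wild type array 1 dropped and 0.80 with array 2 dropped. Bcl3, a partner of dimers of the short forms of Nfkb1 and Nfkb2, was at 1656 and 1256 in wild type and at 1961 and 2651 in lymphoma. Here wild type array 2 was the lowest and lymphoma array 2 the highest, with no overlap. The log2 difference of Bcl3 was 0.66 (SE 0.23, 95% interval 0.10 to 1.22, adjusted p = 0.23 in limma). Without lymphoma array 1 it was 0.88 (adjusted p = 0.035), a fit in which 1 lymphoma array stood for the group, and without lymphoma array 2 it was 0.44. Under the Cd3 scaling the difference was 0.02 for Nfkbiz and 0.18 for Bcl3.

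Among the DNA-binding subunits, Nfkb2 had the largest difference. It encodes p100, which holds Relb in the cytoplasm until it is processed to p52. Its intensity was 1066 and 995 in wild type and 1661 and 1750 in lymphoma, 2 tight pairs with no overlap. The log2 difference was 0.73 (SE 0.17, 95% interval 0.32 to 1.13), a 1.66-fold higher intensity, with an adjusted p of 0.077 in limma, so it did not pass. Leaving out 1 array gave values from 0.68 to 0.78, and it was 0.72 and 0.74 within the pairs of arrays matched on Y-linked signal. With the Cd3 mean subtracted it was 0.25 (adjusted p = 0.32 in limma).

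The remaining subunits differed little. Rel, the c-Rel subunit prominent in activated lymphocytes, was at 3638 and 3707 in wild type and at 3734 and 4178 in lymphoma. The groups did not overlap, but lymphoma array 1 lay just above wild type array 2. Its log2 difference was 0.11 (95% interval -0.26 to 0.47, adjusted p = 0.85 in limma). Rela, the p65 subunit with a strong activation domain, was at 1814 and 1621 in wild type and at 1779 and 1887 in lymphoma. Relb was at 591 and 511 in wild type and at 613 and 587 in lymphoma. For both genes the groups overlapped. The log2 difference of Rela was 0.10 (95% interval -0.31 to 0.50, adjusted p = 0.88 in limma) and that of Relb was 0.13 (95% interval -0.32 to 0.57, adjusted p = 0.86). These intervals leave room for a rise by up to 0.47 to 0.57 on the log2 scale, so a missed threshold does not show equal levels. With the Cd3 mean subtracted the 3 genes had negative differences, -0.37 for Rel, -0.38 for Rela and -0.35 for Relb, above the median of all genes under that scaling (-0.52).

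**Figure D2:**
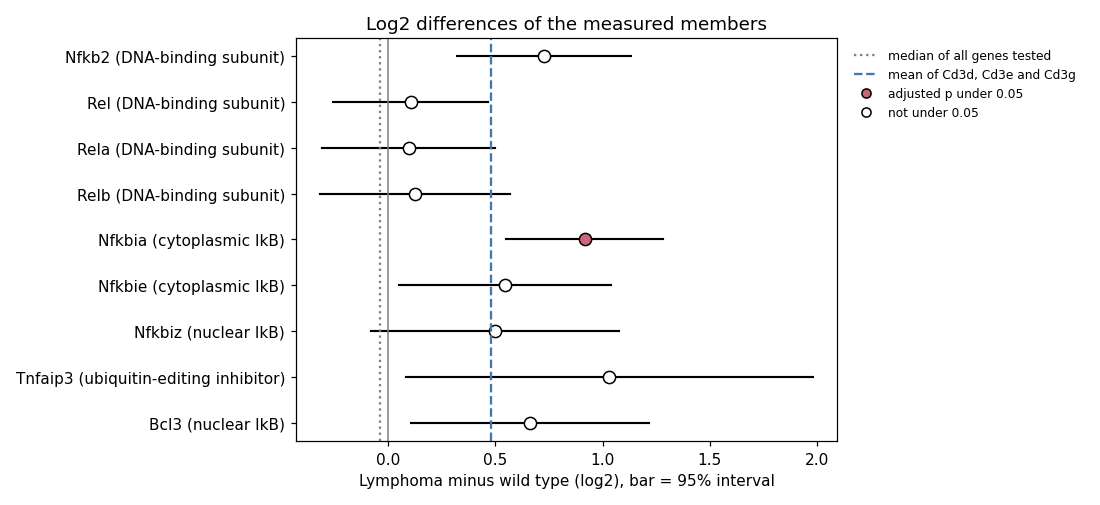
Lymphoma minus wild type log2 difference of each measured member with its 95% interval, with lines at the median of all genes tested (-0.04) and at the mean of Cd3d, Cd3e and Cd3g (0.48). Nfkbia is the filled point, with its interval (0.55 to 1.28) to the right of both lines. The Cd3 line is drawn without its own spread. With the Cd3 mean subtracted Nfkbia did not pass (0.44, adjusted p = 0.11 in limma). The points of Rel, Rela and Relb lie to the left of the Cd3 line.

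By role, the median log2 difference was 0.12 over the 4 measured subunits and 0.66 over the 4 IkB genes and Tnfaip3. This contrast was not tested. Relative to the wild type mean, the per-array medians of the subunits were 0.11 and 0.16 on lymphoma arrays 1 and 2, and those of the inhibitors were 0.57 and 0.86. On the wild type arrays the inhibitor medians were 0.053 and -0.053, equal and opposite because the values are centred on these 2 arrays. Inhibitors of opposite sign offset each other in them, so they do not measure the wild type spread. On wild type array 1 Tnfaip3 was at -0.63, Nfkbiz at -0.30, Nfkbie at 0.21, Bcl3 at 0.20 and Nfkbia at 0.053. The lymphoma arrays differed from each other by at most 0.16 in log2 in each member except Bcl3, whose gap was 0.43. Wild type array 1 was the lower wild type array for Tnfaip3, Nfkbiz and Rel, and the higher one for the other 6.

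The genes with patterns most like Nfkbia over the 4 arrays, by Euclidean distance of log2 values taken from the wild type mean, were Hspa4l, a heat shock protein gene (distance 0.047), Tipin, which encodes a replication fork protein (0.068), and Fbxw8, an F-box gene (0.083). Those most like Tnfaip3 were Pbk, a kinase gene of dividing cells (0.29), the inducible nuclear receptor gene Nr4a2 (0.41) and Gdap10 (0.45). The intensities of Nr4a2 were 347 and 868 in wild type and 1452 and 1065 in lymphoma, so it shared the low value on wild type array 1. Distances over 4 arrays are a description only.

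The rest of the pathway did not move one way. Of 106 other genes listed under 7 headings, 97 were measured. Of these 5 were called higher and 6 lower, beside 1.82% and 2.46% of all genes tested, and the median log2 difference was 0.025. These counts were not tested against those shares. None of 9 kinase genes passed. The largest differences there were those of Ikbkb, the catalytic kinase of the classical route (1150 and 1227 against 778 and 753, log2 difference -0.63, adjusted p = 0.12 in limma), and of Map3k14 (-0.59, adjusted p = 0.22). Of 12 adaptor and ubiquitin ligase genes none passed, with Traf5 at -0.53 (adjusted p = 0.41) and Birc2, a ubiquitin ligase that restrains Map3k14, at 0.46 (adjusted p = 0.28). Among the 3 other IkB genes Nfkbib, which encodes IkB beta, had the largest difference, with 2665 and 2326 against 3136 and 3735 (0.46, adjusted p = 0.27), and Nfkbid was at -0.03 with 1321 and 616 on the lymphoma arrays.

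Of 18 other negative regulators Nlrc3 was called lower and none was called higher, while 11 had positive and 7 negative differences. Nlrc3, a sensor protein that dampens signalling in T cells, was at 858 and 855 in wild type and at 265 and 263 in lymphoma (log2 difference -1.70, SE 0.17, adjusted p = 0.0068 in limma). Otud7b, which encodes a deubiquitinase of the alternative route, and Tnip1, which encodes a binding partner of A20, are named after their values were seen. Otud7b was at 232 and 245 against 434 and 411 (0.83, adjusted p = 0.060 in limma), and Tnip1 at 453 and 437 against 718 and 753 (0.73, adjusted p = 0.087). Neither passed in the main fit, which gave these values, and in both the groups were apart by more than their spread. Otud7b did pass in limma with array medians subtracted (0.90, adjusted p = 0.044) and without genes below the median intensity (0.83, adjusted p = 0.042). It did not pass with the Cd3 mean subtracted, and without lymphoma array 2 its difference was 0.86. Traf3ip3, also named after its values were seen, went the other way, with 1396 and 876 against 579 and 512. Its log2 difference was -1.02 (adjusted p = 0.102 in limma), and it passed as lower with the Cd3 mean subtracted (-1.50, adjusted p = 0.00093).

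Receptors that feed the pathway went both ways, with 2 of 19 called higher and 2 lower, beside 1.82% and 2.46% of all genes. Tnfrsf4, the costimulatory receptor OX40, rose by 1.73 on the log2 scale from 1822 and 1628 to 4728 and 6867 (adjusted p = 0.011 in limma). Tnfrsf18, the receptor GITR, rose by 0.94 (adjusted p = 0.032), with 1649 and 1490.5 against 2880 and 3152. Tnfrsf13c, the BAFF receptor of B cells, fell by 1.79 (adjusted p = 0.024), and Tnfrsf11a, the receptor RANK, fell by 0.99 (adjusted p = 0.032). Tnfrsf11a was at 242 and 213 in wild type and at 114 on both lymphoma arrays, below their medians of 138 and 130. On the same arrays 8 of 9 B cell, 6 of 7 dendritic cell and 8 of 10 macrophage and monocyte markers were called lower. The part of these cells in the 2 falls was not tested. The call on Tnfrsf18 was lost with the Cd3 mean subtracted (0.46, adjusted p = 0.099). That on Tnfrsf11a was lost with Y-linked signal as a covariate (adjusted p = 0.063), where its log2 difference of -0.98 was close to the -0.99 without the covariate.

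Of 9 ligand genes none was called higher, and 3 had positive and 6 negative differences. Il1b, the inflammatory cytokine of myeloid cells, was called lower and fell by 2.05 (564 and 407 against 121 and 110, adjusted p = 0.0075 in limma). Macrophage and monocyte markers were lower on the same arrays, with 8 of 10 called, and their part in this fall was not tested. Of 27 measured textbook targets of NF-kappaB, 3 were called higher and 2 lower, beside 1.82% and 2.46% of all genes. The list median was 0.15, with 17 positive and 10 negative differences. The chemokine genes Ccl3 (2.34, adjusted p = 0.045 in limma), Cxcl10 (1.71, adjusted p = 0.014) and Ccl4 (1.26, adjusted p = 0.041), the last named after its values were seen, rose. The cyclin gene Ccnd1 fell by 3.13 (1704 and 1481 against 166 and 198, adjusted p = 0.0021 in limma). The adhesion molecule gene Vcam1, also in the macrophage list, fell by 1.93 (adjusted p = 0.012 in limma). The part of macrophages, dendritic cells and B cells in the falls of Ccnd1 and Vcam1 was not tested. Ccl3 had 588 and 1604 in wild type and 4263 and 5641 in lymphoma. Its wild type gap exceeded that of 99.8% of genes, with array 1 lower as for Tnfaip3. With quantile normalization the calls on Ccl3 (2.31, adjusted p = 0.088) and Ccl4 (1.27, adjusted p = 0.0502) were lost while their differences hardly moved. The call on Ccl3 was also lost with array medians subtracted (2.41, adjusted p = 0.053), and at its difference of 2.34 without a variance trend (adjusted p = 0.053) or with a robust one (adjusted p = 0.14). With the Cd3 mean subtracted Ccl4 lost its call (0.78, adjusted p = 0.064) and Ccl3 kept it (1.86, adjusted p = 0.0035). No pathway gene passed without wild type array 1, and none without array 2.

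**Figure D3:**
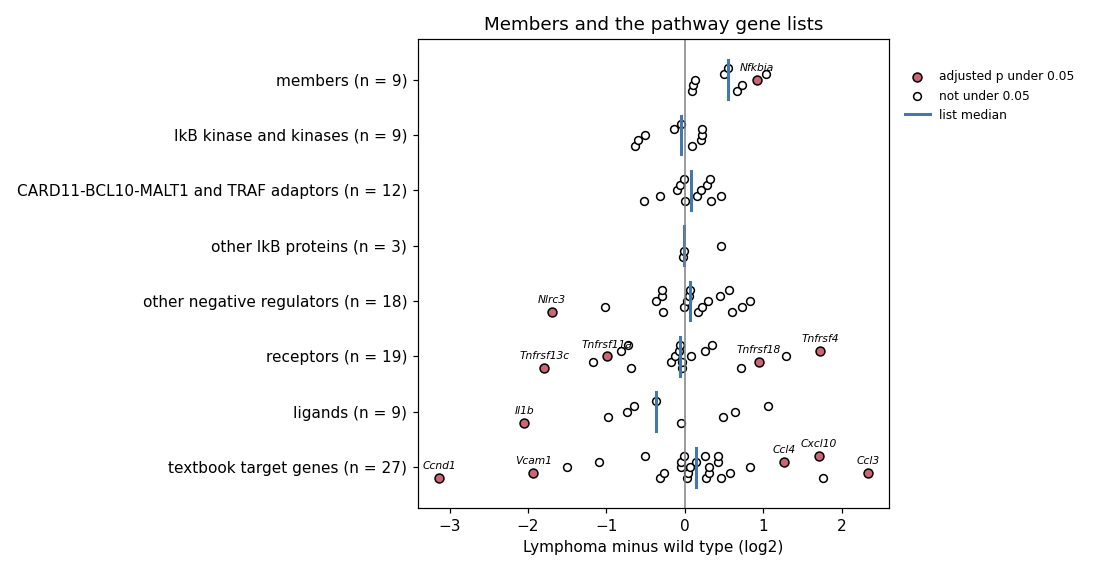
Lymphoma minus wild type log2 difference of each gene, 1 point per gene, for the members and the 7 pathway lists, with filled points for an adjusted p under 0.05 and a bar at each list's median. The members' median is at 0.54 and the medians of the other lists lie between -0.37 and 0.15.

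Of 17 alternative settings, 8 changed only the spread, the genes tested or the threshold and returned the same difference for every member, so they bear on calls and not on direction. Under the other 9 the differences of Nfkb2, Nfkbia, Nfkbie, Nfkbiz, Tnfaip3 and Bcl3 were positive in all 9, and those of Rel, Rela and Relb in 8, the exception being subtraction of the Cd3 mean. Of those 9, 4 left out an array, which cannot turn the sign of a member whose groups do not overlap. Nfkbia was called in 14 of the 17, and its log2 difference lay between 0.44 and 0.99.

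**Figure D4:**
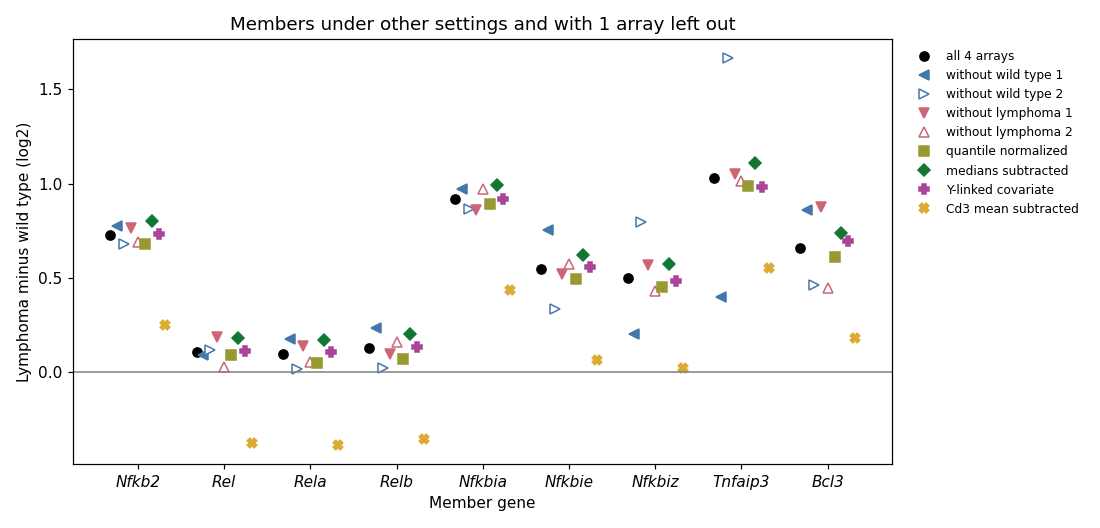
Log2 difference of each measured member with all 4 arrays, with 1 array left out, under quantile normalization or median subtraction, with Y-linked signal as a covariate, and with the Cd3 mean subtracted. Nfkb2 and Nfkbia move little except under the Cd3 scaling, and Tnfaip3 ranges from 0.40 to 1.67 with 1 wild type array left out.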

How the data were processed

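CD4+ spleen cells were profiled on 4 single-channel arrays, 2 per group. The intensity values that the authors deposited are linear, with 1 value for each probe set; per the submitters' processing notes they came from Affymetrix Expression Console, with summarisation, normalization and version not given in the sources used here. No detection calls were used, so dim probe sets could not be set against background, and the number of arrays limits precision.

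Log2 was taken without an offset or filter. Of 35556 probe sets, 21789 had 1 gene symbol, and the one of highest mean per gene was kept (19938 genes). Groups were compared in limma 3.58.1 (R 4.3.3) with a variance trend, two-sided p-values and adjustment by Benjamini-Hochberg over all genes. The procedure was tested on simulated data with independent noise, which held no cell mix, sex difference or shift of a whole array. Members, gene lists and tests were chosen with earlier results of these data known. All members are named, with up to 4 called genes per list by size, or the 2 largest differences where none was called, and the 3 genes nearest in pattern to the 2 members of largest difference. Ccl4, Otud7b, Tnip1, Traf3ip3, Cd2, Cd4, Cd5 and Cd28 fall outside this rule and were added after their values were seen. Alternatives were other normalizations, filters, an offset of 16, variance models, averaging of probe sets, array weights, a replicate block, leaving out each array and another threshold. The Y-linked covariate and the Cd3 scaling were chosen after seeing the data. Same-numbered arrays deviated together weakly (r = 0.23 across genes), and no label pairs them. Figures were drawn with matplotlib 3.10.9.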

Additional observations from a re-analysis of the deposited data

How the results depend on the processing

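Over all genes, 362 were called higher and 490 lower with all 4 arrays. With 1 array left out these counts ranged from 0 to 1057 and from 0 to 843. The 0 arose in limma without either wild type array, where 2308 and 2049 genes had an unadjusted p under 0.05 without wild type arrays 1 and 2. The count of members called higher ranged from 0 to 2 in these fits, with 4 members at an unadjusted p under 0.05 in each. The pathway lists had 0 to 10 genes called higher and 0 to 14 lower, and the members' median ranged from 0.40 to 0.57. These fits have a group of 1 array, which is assumed to vary like the other group. At an adjusted p under 0.1, 665 genes were higher and 692 lower, 2 members (Nfkbia and Nfkb2) were higher and 0 lower. Of the pathway genes, 8 were higher and 8 lower at that threshold. Quantile normalization left 3 pathway genes higher and 6 lower. With the Cd3 mean subtracted, 275 genes were called higher and 2589 lower, no member passed in limma (1 had an unadjusted p under 0.05), 3 pathway genes were higher and 24 lower, and the members' median was 0.065. Under that scaling Rel (-0.37), Rela (-0.38) and Relb (-0.35) changed sign. The replicate block gave 429 genes higher and 555 lower, with Nfkbia at an adjusted p of 0.029, and changed no member's call. The other settings kept 1 member called higher.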
